A study of Mus musculus with 20 samples.

Results

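The 43 genes described here are the collagen genes of the mouse, taken as every protein-coding gene whose symbol is Col, a number, the letter a and a number in an annotation of genome build NCBIM37 (mm9). They are 43 of 22367 protein-coding genes. Each gene was measured over its body and 1 kb on either side, called its window, and the measure was the percent of that window lying under 5-formylcytosine (5fC) peaks. The libraries were 5fC pull-downs from 4 tissues, the hindbrain, heart, carcass and liver, of mouse embryos at E11.5 that were wild-type (WT) or *Tdg* null. *Tdg* null embryos were homozygous for a constitutive deletion that removes the catalytic part of TDG and leaves a neomycin resistance cassette in its place, so no cell has active enzyme. There were 4 hindbrain libraries of each genotype, each WT embryo sharing a litter with a null embryo, and 2 libraries of each genotype for heart, carcass and liver. Hearts, carcasses and livers came from the same 4 embryos, which belonged to litters labelled pair_a and pair_b, whereas hindbrains came from 8 other embryos. Tissue and set of embryos therefore cannot be told apart wherever hindbrain is compared with another tissue. The sex and strain of the embryos are not given in the sources used here.

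5fC is made from 5-methylcytosine by the TET enzymes, through 5-hydroxymethylcytosine, and TDG excises it so that base excision repair can restore an unmodified cytosine. Embryos without TDG lack this route of removal, so that 5fC accumulates, although it can still be diluted when DNA replicates or be oxidised further to 5-carboxylcytosine. Collagens are triple-helical proteins that build the extracellular matrix: fibrillar collagens form the fibres of bone, tendon and skin, type IV collagens form the sheet of basement membranes, and the other classes coat fibrils, span cell membranes or form networks of their own. Much of the collagen of an embryo is made by mesenchyme, cartilage and endothelium, while hindbrain holds collagens mainly in its blood vessels and coverings.

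The libraries differed widely in size. Peaks of the *Tdg* null libraries covered 68.4 to 207 Mb of the genome, and peaks of the WT libraries covered 0.894 to 24.0 Mb. The null liver of pair_b, which the study set aside, covered 0.0966 Mb and held no peak in any collagen window, so 19 of 20 libraries were used. Only peak positions were used here, not the raw reads. The read depth behind a peak is therefore not known here, no counting interval can be given, and a gene without a peak is listed at 0. Peak files can check neither the dissected tissue by its markers nor the deletion in *Tdg*. In bulk tissue, 5fC on few alleles of many cells and on many alleles of few cells cannot be told apart.

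Over their joined windows, collagen genes carried about as many peak bases as all genes in *Tdg* null heart and somewhat more in null hindbrain, liver and carcass. The excess was largest in WT carcass, where the median member was nonetheless near the middle of genes of its length. In null hindbrain 4.89% ± 0.767 (SD, n = 4) of the joined collagen windows lay under peaks, which is 1.10 ± 0.0543 times the cover of all protein-coding windows in the same libraries. The same ratio was 0.973 ± 0.0535 (n = 2) in null heart, 1.23 ± 0.0987 (n = 2) in null carcass and 1.12 in the only null liver. In WT carcass the ratio was 1.74 and 1.75 in its 2 libraries, with 1.94% and 1.64% of collagen windows under peaks against 1.11% and 0.942% of all windows. Each WT carcass library had peaks in 29 collagen genes, which is 67.4%, against 63.4% and 59.9% of the genes nearest to them in length. WT hindbrains had peaks in 1 to 23 collagen genes, 2.33% to 53.5%, against 8.21% to 50.7% of the genes nearest in length. WT hearts had them in 7 and 9, 16.3% and 20.9%, against 24.8% and 25.4%. WT livers had them in 18 and 7, 41.9% and 16.3%, against 50.4% and 10.2%. Null libraries reached 37 to 42 of the 43 genes, 86.0% to 97.7%, against 79.4% to 92.5% of the genes nearest in length.

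**Figure D1:**
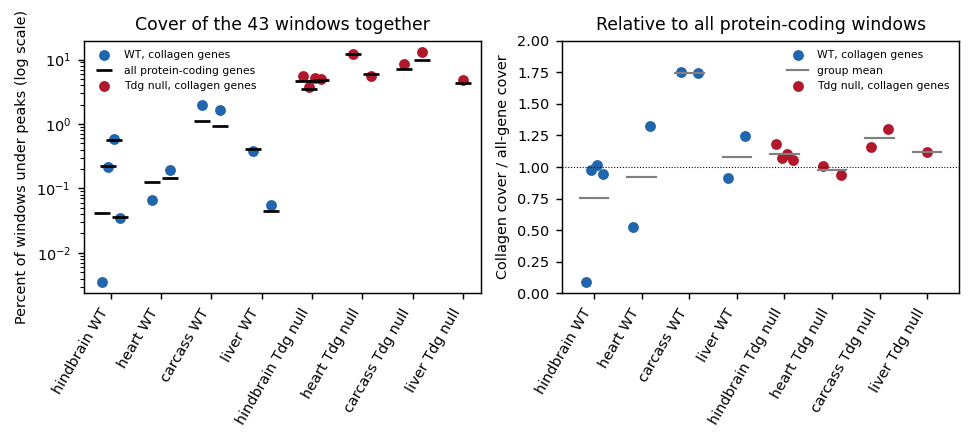
Left, percent of the 43 collagen windows under 5fC peaks in each library (points, log scale) beside the same percent for all protein-coding windows (black dashes), for WT (blue) and *Tdg* null (red) tissues. Right, the ratio of both in each library with group means as grey lines; the WT carcass libraries sit at 1.74 and 1.75 and the null carcass libraries at 1.16 and 1.30, while 1 WT hindbrain lies at 0.0863.

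Length matters for this family, because collagen windows are long. The median window was 116 kb with 48 exons, against 17.4 kb and 7 exons over all protein-coding genes. Each collagen gene was therefore ranked among the 200 genes nearest to it in window length. The median rank was percentile 61.6 in null hindbrain, 53 in null heart and 62 in null carcass, and 50.5 and 55.5 in the 2 WT carcass libraries. With neighbours alike in GC content as well as length, the medians were percentiles 54.6, 36 and 54.8. Single members stood well away from these medians. *Col4a2* ranked at percentile 99.2 among genes of its length in null heart, and at 97.8 with GC content matched. *Col16a1* ranked at percentile 94.1 in null hindbrain by length, but at 56.9 with GC content matched. By length the X-linked *Col4a5* and *Col4a6* ranked below percentile 10 in null hindbrain, heart and carcass. With GC content matched, *Col4a5* ranked at 15.1 in null hindbrain and *Col4a6* at 10 in null heart.

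**Figure D2:**
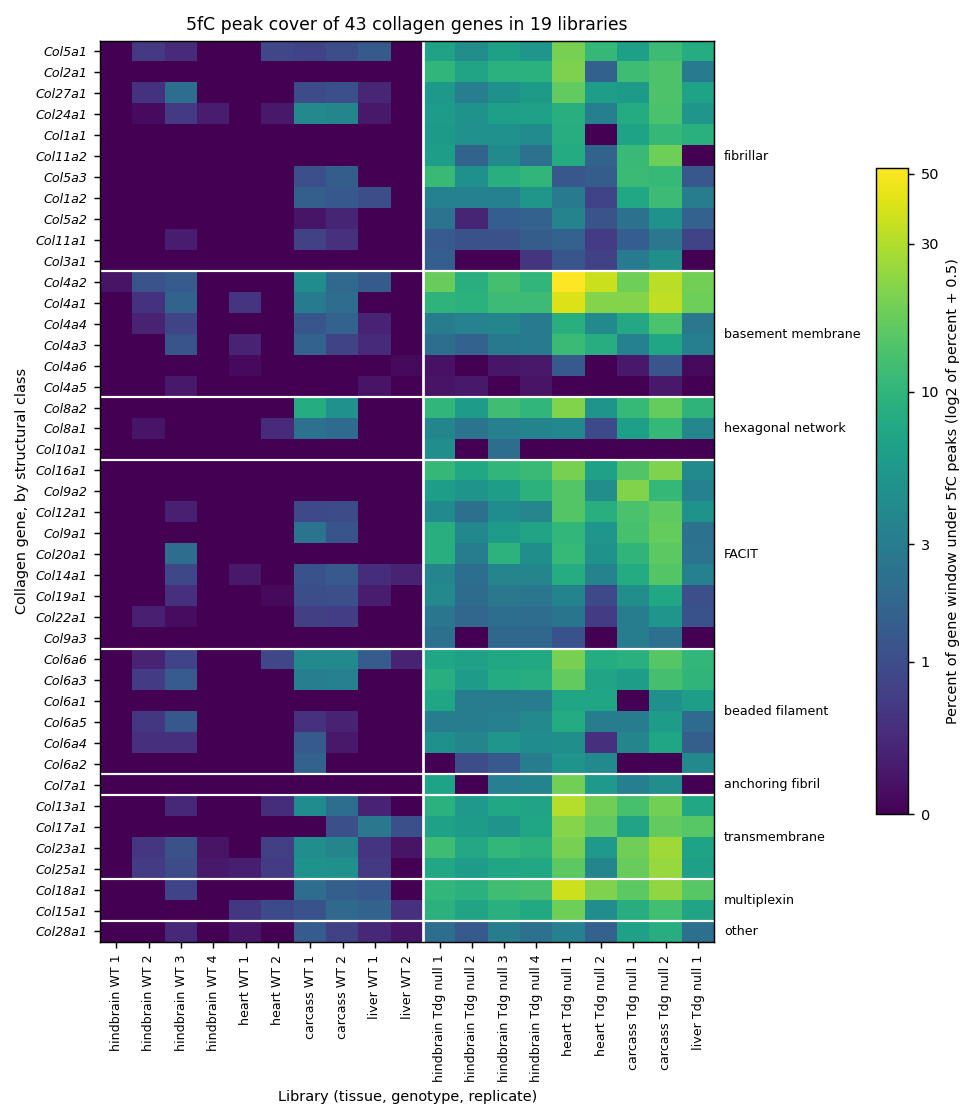
Percent of each collagen gene window under 5fC peaks (colour, log2 of percent + 0.5) in 19 libraries, WT left and *Tdg* null right of the white line, with genes grouped by structural class. *Col4a1* and *Col4a2* reach 40.3% and 52.0% in null heart replicate 1, *Col4a5* stays at or below 0.185% in the null libraries, and in WT tissues the carcass columns hold the most genes.

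No collagen gene carried peaks in every library, and none lacked them in all. *Col25a1*, which encodes a transmembrane collagen of neurons, and *Col23a1*, a transmembrane collagen of epithelia, had peaks in 17 of 19 libraries. *Col10a1*, the collagen of hypertrophic cartilage and the shortest of these genes at 9.11 kb, had peaks in 2, null hindbrain replicates 1 and 3, with 4.39% in the first. In the 10 WT libraries, 10 collagen genes had no peak base at all: *Col1a1*, *Col2a1*, *Col3a1*, *Col6a1*, *Col7a1*, *Col9a2*, *Col9a3*, *Col10a1*, *Col11a2* and *Col16a1*. All 10 had peak bases in at least 1 null library. Over all protein-coding genes 55.2% had none in WT tissues. Over the joined set of 4905 length neighbours of the collagens 26.9% had none. That set is shorter than the collagens, with a median window of 52.6 kb against 116 kb, so its share is not matched in length.

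To show what the marked DNA looks like, stretches shared by the most libraries and stretches covered in a single null tissue are printed below, each with its central 200 bases on the plus strand of NCBIM37 and with every CpG, the site at which 5fC usually arises in these tissues, in capitals. The stretch shared most widely lay in intron 2 of *Col25a1*, 130.1 kb from the start site, and was under peaks of 14 libraries: all null hindbrains and carcasses, null heart replicate 1, the null liver, 3 WT hindbrains, both WT carcasses and WT heart replicate 2. It spans 400 bp with 12 CpGs, and the printed bases are chr3:130013801-130014000. The next, in intron 54 of *Col24a1*, spans 300 bp with 11 CpGs, was under peaks of 13 libraries, and is printed as chr3:145179751-145179950. Intron numbers count the gaps between the joined exons of all annotated transcripts.
Col25a1 intron 2, most shared: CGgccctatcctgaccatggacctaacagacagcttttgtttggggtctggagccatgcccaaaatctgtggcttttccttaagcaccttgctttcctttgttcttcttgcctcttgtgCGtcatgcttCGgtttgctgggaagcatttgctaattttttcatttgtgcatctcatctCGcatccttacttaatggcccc
Col24a1 intron 54, most shared: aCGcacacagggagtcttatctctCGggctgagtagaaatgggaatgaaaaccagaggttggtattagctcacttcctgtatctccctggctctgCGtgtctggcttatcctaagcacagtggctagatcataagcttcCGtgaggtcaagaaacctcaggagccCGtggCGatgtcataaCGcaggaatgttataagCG

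Other stretches were under peaks of every null library of one tissue and of no null library of the other two. Heart and carcass had to be covered in 2 libraries and hindbrain in 4. The longest hindbrain stretches were 900 bp at an exon of *Col5a1* (printed, chr2:27854251-27854450, of which 49 bases are exonic) and 700 bp in intron 33 of *Col17a1* (chr19:47732051-47732250). Heart had 1600 bp in intron 64 of *Col5a1* (chr2:27887601-27887800) with 30 CpGs, which was also covered in WT liver replicate 1. Carcass had 2000 bp in intron 4 of *Col25a1* (chr3:130112401-130112600) and 1500 bp in intron 1 of *Col11a2* (chr17:34178851-34179050) with 34 CpGs. *Col5a1* thus held a hindbrain and a heart stretch at different places, and *Col25a1* held a stretch shared by most libraries and one of carcass alone.
Col5a1 exon, hindbrain: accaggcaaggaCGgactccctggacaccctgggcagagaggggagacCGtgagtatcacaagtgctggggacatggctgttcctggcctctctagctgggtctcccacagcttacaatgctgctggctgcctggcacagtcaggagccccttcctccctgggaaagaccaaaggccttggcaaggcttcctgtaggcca
Col17a1 intron 33, hindbrain: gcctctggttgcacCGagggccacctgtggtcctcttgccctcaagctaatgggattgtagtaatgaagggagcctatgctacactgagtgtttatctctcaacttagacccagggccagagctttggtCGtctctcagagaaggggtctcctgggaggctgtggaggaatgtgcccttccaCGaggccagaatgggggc
Col5a1 intron 64, heart: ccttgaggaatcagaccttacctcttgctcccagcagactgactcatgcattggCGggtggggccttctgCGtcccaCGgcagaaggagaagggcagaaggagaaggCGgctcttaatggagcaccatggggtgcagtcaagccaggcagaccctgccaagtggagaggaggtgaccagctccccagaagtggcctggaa
Col25a1 intron 4, carcass: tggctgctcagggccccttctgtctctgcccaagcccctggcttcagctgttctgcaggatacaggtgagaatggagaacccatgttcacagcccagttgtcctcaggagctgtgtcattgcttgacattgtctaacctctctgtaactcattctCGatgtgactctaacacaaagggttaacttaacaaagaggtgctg
Col11a2 intron 1, carcass: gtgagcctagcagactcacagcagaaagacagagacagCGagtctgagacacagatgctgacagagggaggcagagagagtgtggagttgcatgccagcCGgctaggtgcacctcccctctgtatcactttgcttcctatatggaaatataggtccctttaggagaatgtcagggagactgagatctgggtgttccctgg

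Type IV collagens are the network formers of basement membranes, and their 6 genes lie as 3 head-to-head pairs, so windows of a pair share sequence and are not independent. *Col4a2* (chr8:11312805-11449287, plus strand) had the highest cover of all collagens by the mean over the null groups, and in carcass it came after *Col4a1*. Its cover was 17.2%, 8.80%, 12.8% and 10.2% in the 4 null hindbrains, 52.0% and 35.4% in the null hearts, 18.4% and 31.8% in the null carcasses and 18.8% in the null liver. In percent both hearts lay above every other library. Divided by the cover of all protein-coding windows in its library, *Col4a2* stood at 4.27 and 6.02 in the null hearts and 4.31 in the null liver. On that scale it had 2.14 to 3.66 in null hindbrain and 2.55 and 3.19 in null carcass. *Col4a1* (chr8:11198423-11312826) followed with 9.26% to 11.7% in null hindbrain, 40.3% and 21.5% in heart, 21.6% and 33.4% in carcass and 18.4% in liver. Here hearts and carcasses overlapped, and all of them lay above the hindbrains. Relative to the library the liver, at 4.21, lay above both hearts, at 3.31 and 3.65. *Col4a3* and *Col4a4*, whose products form the network of the kidney glomerulus, were lower: *Col4a3* had 1.68% to 2.99% in hindbrain, 11.5% and 8.53% in heart and 3.35% and 7.22% in carcass. For *Col4a4* percent cover was higher in carcass than in heart in 1 pair only, at 7.82% and 13.5% against 8.98% and 4.05%. Relative to the library both carcasses, at 1.08 and 1.35, lay above both hearts, at 0.737 and 0.690, and above all hindbrains, at 0.621 to 0.960.

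The pair on the X chromosome stood apart from its class. *Col4a5* had at most 0.185% in any null library and *Col4a6* at most 1.38%. All 932 X-linked genes together had 0.335% to 1.61% of their windows under peaks in the null libraries, against 3.69% or more for autosomal genes in every null library, so both genes were low on a chromosome that was low as a whole. As a class, basement membrane collagens had a relative cover of 1.32 ± 0.208 (n = 2) in null heart, 0.986 ± 0.156 (n = 2) in carcass and 0.810 ± 0.0583 (n = 4) in hindbrain, where relative cover is the percent of the window under peaks divided by that of all protein-coding windows in the same library. The 2 heart libraries, at 1.18 and 1.47, lay above the 4 hindbrain libraries, which reached 0.869 at most.

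Multiplexins are basement membrane collagens with heparan sulphate or chondroitin sulphate chains. *Col18a1*, the precursor of endostatin, had 10.5%, 9.19%, 12.2% and 12.9% in null hindbrain, 36.2% and 20.8% in heart, 15.9% and 23.5% in carcass and 15.2% in liver. Relative to the library *Col18a1* stood at 2.22 to 2.70 in hindbrain, 2.97 and 3.54 in heart and 2.21 and 2.36 in carcass, so both hearts lay above the other libraries of these tissues. The class as a whole stood at 2.23 ± 0.0916 (n = 4) in hindbrain, 2.23 ± 0.0430 (n = 2) in heart and 1.77 ± 0.0789 (n = 2) in carcass. *Col15a1*, its relative in vessel and muscle basement membranes, had 7.10% to 9.44% in hindbrain, 18.2% and 4.39% in heart and 8.50% and 12.4% in carcass.

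The relative cover of the transmembrane collagens was 2.35 ± 0.0826 (n = 2) in null carcass, 1.81 ± 0.115 (n = 4) in hindbrain and 1.43 ± 0.260 (n = 2) in heart. *Col23a1* had 7.84% to 11.9% in hindbrain, 19.8% and 5.57% in heart and 18.6% and 26.6% in carcass. *Col25a1*, at 421 kb the longest of the windows, had 5.89% to 7.60% in hindbrain, 15.7% and 3.75% in heart and 17.3% and 24.9% in carcass. *Col13a1*, a collagen of cell adhesion sites and the neuromuscular junction, and *Col17a1*, a component of hemidesmosomes, had their highest cover in heart replicate 1. *Col13a1* had 5.74% to 9.31% in hindbrain, 30.8% and 18.6% in heart and 13.1% and 18.9% in carcass, and *Col17a1* had 5.03% to 7.33%, then 22.0% and 16.3%, then 7.12% and 16.5%.

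**Figure D3:**
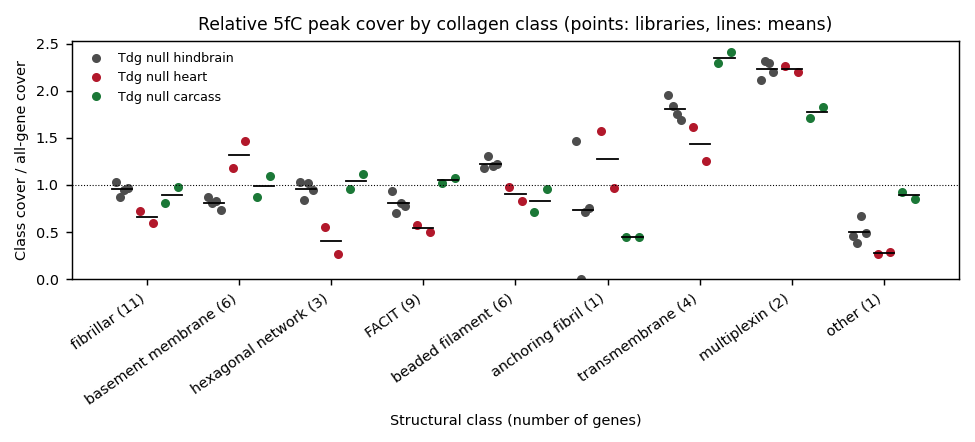
Relative 5fC peak cover of each structural class of collagen in the *Tdg* null hindbrain (grey), heart (red) and carcass (green) libraries, with group means as lines and the level of all protein-coding genes at 1. Multiplexins lie between 1.71 and 2.31 in these tissues, transmembrane collagens are highest in carcass at 2.29 and 2.41, and fibrillar, hexagonal network and FACIT collagens are lowest in heart.

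Fibrillar collagens, which supply the bulk of the fibres of connective tissue, had a relative cover of 0.955 ± 0.0640 (n = 4) in null hindbrain, 0.896 ± 0.117 (n = 2) in carcass and 0.663 ± 0.0918 (n = 2) in heart. *Col5a1*, a regulator of fibril diameter, had 4.51% to 6.83% in hindbrain, 19.9% and 10.5% in heart and 6.38% and 11.6% in carcass, and *Col2a1*, the main collagen of cartilage, had 7.07% to 10.3%, then 20.6% and 1.61%, then 11.9% and 13.8%. The hearts differed widely over *Col2a1*. *Col27a1*, a collagen of growth plate cartilage, had 3.17% to 5.77% in hindbrain, 16.6% and 6.26% in heart and 5.77% and 13.7% in carcass. The 2 chains of type I collagen, the most abundant collagen of the body, had modest cover: *Col1a1* had 4.25% to 5.85% in hindbrain, 8.50% and 0% in heart and 6.91% and 10.6% in carcass. *Col3a1*, which goes with type I collagen in skin and vessels, was near the bottom with 0% to 1.49% in hindbrain and 2.99% and 4.48% in carcass.

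FACIT collagens, which decorate the surface of fibrils, showed carcass above the other tissues, with a relative cover of 1.05 ± 0.0398 (n = 2) in null carcass, 0.807 ± 0.0966 (n = 4) in hindbrain and 0.541 ± 0.0550 (n = 2) in heart. *Col16a1* had 10.5%, 7.48%, 10.1% and 11.2% in hindbrain, 19.7% and 6.74% in heart and 14.4% and 20.8% in carcass. *Col9a2*, a chain of the cartilage collagen type IX, had 5.02% to 9.48% in hindbrain, 14.5% and 4.46% in heart and 21.2% and 10.6% in carcass. The single null liver was low for both, at 4.12% and 3.34%. *Col12a1*, a collagen of tendon and fascia, was the lowest of its class leaders in hindbrain, at 2.30% to 4.27%, and reached 14.5% and 8.86% in heart and 13.2% and 16.1% in carcass. These percents are not scaled. By relative cover *Col16a1* had both carcasses, at 2.00 and 2.09, below all hindbrains, at 2.11 to 2.35. *Col9a2* overlapped, with 2.94 and 1.06 in carcass and 1.30 to 1.98 in hindbrain. *Col12a1* had both carcasses, at 1.83 and 1.61, above all hindbrains, at 0.649 to 0.918.

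Of the hexagonal network collagens, *Col8a2*, a collagen of the corneal Descemet membrane, had 6.09% to 12.2% in null hindbrain, 21.3% and 5.08% in heart and 10.8% and 16.9% in carcass, and *Col8a1*, made in vessel walls, had 2.49% to 3.70%, then 3.89% and 0.906%, then 6.45% and 10.7%. Beaded filament collagens, the microfibrils of most connective tissues, had a relative cover of 1.23 ± 0.0555 (n = 4) in null hindbrain, 0.905 ± 0.103 (n = 2) in heart, 0.833 ± 0.170 (n = 2) in carcass and 1.35 in the only null liver. *Col6a6* led them with 6.68% to 7.89% in hindbrain, 19.7% and 8.39% in heart and 9.03% and 14.8% in carcass. *Col6a3* had 6.07% to 8.85% in hindbrain, 16.8% and 7.08% in heart and 6.32% and 12.8% in carcass. *Col6a1* had 7.23% in null hindbrain replicate 1 and 3.10% in each of the others, 7.23% in both hearts and 0% and 4.64% in the carcasses. *Col7a1*, the anchoring fibril beneath the epidermis, ranged from 0% to 6.91% in hindbrain and had 19.1% and 5.71% in heart, and *Col28a1* had 1.37% to 3.10% in hindbrain and 6.71% and 8.54% in carcass.

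Between heart and hindbrain of *Tdg* null embryos the number of collagen genes called was close to the share over all genes, and more of them were lower than higher in heart. Cover was compared as the log2 of relative cover + 0.25, so each value is set against its own library, and limma with Benjamini-Hochberg adjustment over 16510 genes was used. Of the 43 genes, 4 were higher in heart, against 15.0% of all genes tested, and 10 were lower, against 13.5%. Among genes of similar length (windows of 36.0 to 149 kb) 18.3% were higher and 12.0% lower. The median log2 difference was -0.49 over the collagen genes and 0.05 over all genes tested. The genes higher in heart were *Col4a3* (0.86), *Col4a2* (0.85), *Col13a1* (0.68) and *Col12a1* (0.60). *Col4a1* differed by 0.49 with a limma adjusted p that missed the threshold.

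The largest difference of the family belonged to *Col5a3* (chr9:20574494-20619511, minus strand), a minor fibrillar chain expressed in muscle and fat. Its window was covered to 11.1%, 4.68%, 8.93% and 10.2% in the null hindbrains, 1.28% and 1.49% in the hearts, 11.5% and 10.8% in the carcasses, and 1.28% in the only null liver. Hearts and hindbrains did not overlap, although over the genome the hearts held 254319 and 126531 peaks and the hindbrains 104110 to 132406. In heart against hindbrain the log2 difference was -2.34 ± 0.28 (SE, limma adjusted p = 0.00167). *Col6a4* followed with -1.48 ± 0.28 (limma adjusted p = 0.0105), from 3.76% to 5.14% in hindbrain and 4.59% and 0.457% in heart. *Col1a2*, the second chain of type I collagen, had 3.36% in 3 hindbrains and 5.42% in the fourth, against 2.84% and 0.775% in heart, a difference of -1.38 ± 0.21 (limma adjusted p = 0.00492). *Col8a1* was lower by -1.04 ± 0.18 (limma adjusted p = 0.00775).

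The other genes lower in heart were *Col19a1* (-0.92), *Col22a1* (-0.89), *Col24a1* (-0.85), *Col23a1* (-0.73), *Col16a1* (-0.61) and *Col11a1* (-0.53), FACIT, fibrillar and transmembrane collagens. By relative cover, 18 collagen genes had both hearts below all hindbrains, against 16.7% of all genes, and 8 had both hearts above, against 19.7%. Direction here is relative to the library. With percent cover left unscaled, where the median gene was 0.89 higher in heart, 7 collagen genes were higher, against 24.0% of all genes, and 1 was lower, against 3.18%, and the median collagen difference was 0.29. Left out in turn, single libraries gave 6 to 18 calls, with 0 to 3 higher. Without hindbrain replicate 2, hindbrain replicate 3 or heart replicate 2, no gene was higher, and without heart replicate 1, 15 were lower.

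**Figure D4:**
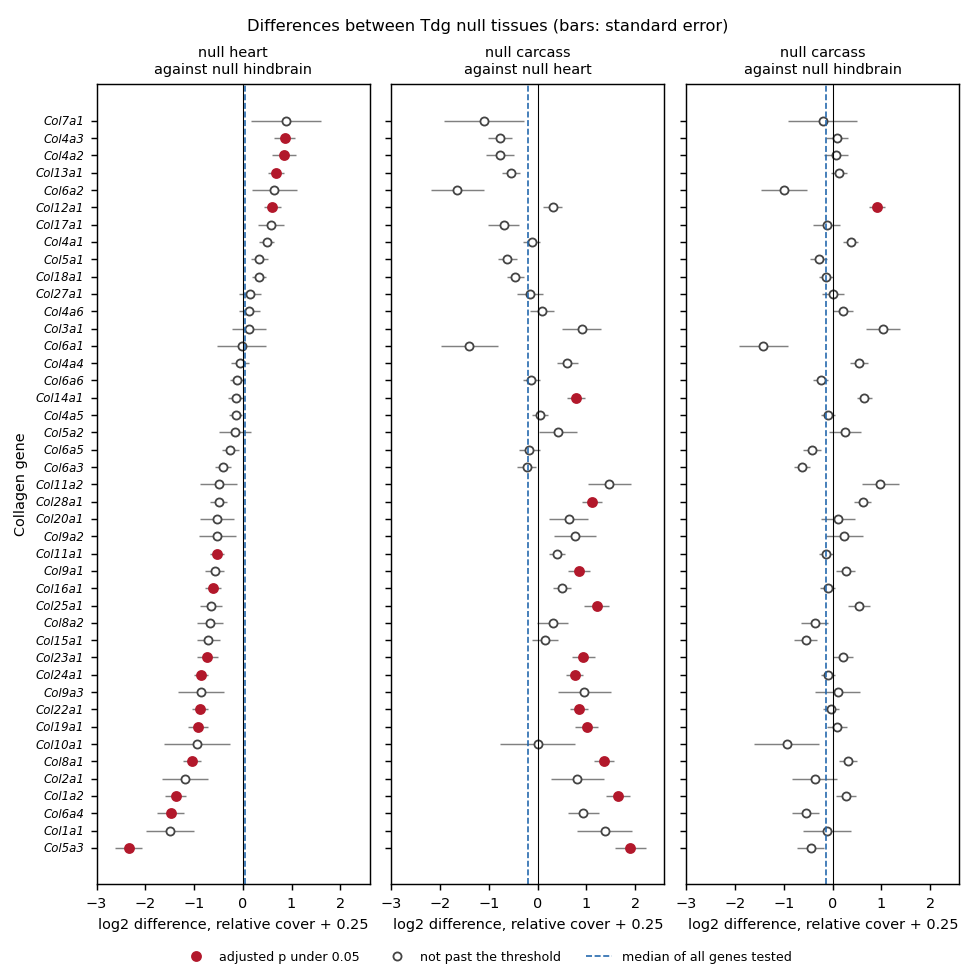
Difference in relative 5fC peak cover (log2 of relative cover + 0.25, bars are standard errors) for each collagen gene in 3 comparisons of *Tdg* null tissues. Filled red points passed an adjusted p of 0.05 and the dashed line is the median of all genes tested. *Col5a3* is lowest in heart against hindbrain at -2.34 and highest in carcass against heart at 1.89, and in carcass against hindbrain a single gene, *Col12a1*, passed.

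Carcass and heart came from the same embryos, and between them collagen genes were on the whole higher in carcass. Of the 43 genes, 11 were higher in null carcass by limma, against 7.33% of all genes tested, and 0 were lower, against 14.4%, with 7 lower at an unadjusted p under 0.05. Among genes of similar length 6.38% were higher and 17.0% lower. The median log2 difference was 0.41 over the collagens and -0.20 over all genes. The leading genes were *Col5a3* at 1.89 ± 0.32 (limma adjusted p = 0.00891), *Col1a2* at 1.65 ± 0.24 (limma adjusted p = 0.00554), *Col8a1* at 1.36 ± 0.21 (limma adjusted p = 0.00623) and *Col25a1* at 1.21 ± 0.26 (limma adjusted p = 0.0209). For *Col1a2* the hearts had 2.84% and 0.775% and the carcasses 7.49% and 11.6%. *Col28a1* (1.11), *Col19a1* (1.0), *Col23a1* (0.94), *Col22a1* (0.85), *Col9a1* (0.84), *Col14a1* (0.79) and *Col24a1* (0.76) were higher as well.

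By relative cover 22 collagen genes had both carcasses above both hearts, against 18.1% of all genes, and 9 had both below, against 29.5%. These 9 included *Col4a2*, *Col4a3*, *Col13a1*, *Col17a1* and *Col18a1*. With the litter pair as a block, which sets each carcass against the heart of the same embryo, 0 of 41 genes tested passed the limma threshold, against 1.39% of all genes higher and 3.42% lower, and 10 were higher and 3 lower at an unadjusted p under 0.05. The number of genes called depended on single libraries: 2 were called without carcass replicate 1, 4 without carcass replicate 2, 5 without heart replicate 2, and 14 higher with 1 lower without heart replicate 1. Without scaling to the library 2 genes were called, both higher, against 3.05% of all genes.

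**Figure D5:**
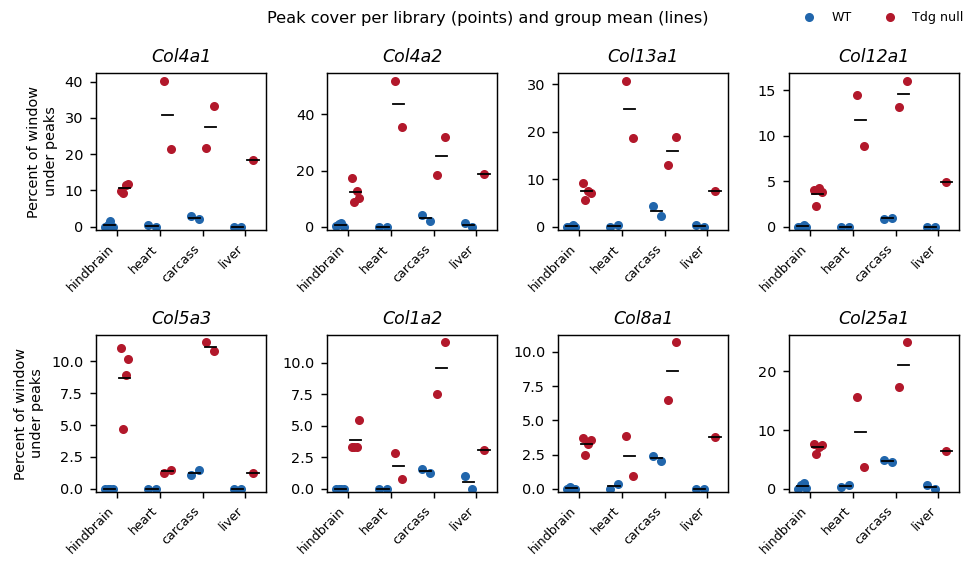
Percent of the gene window under 5fC peaks in each WT (blue) and *Tdg* null (red) library by tissue, with group means as lines, for 8 collagen genes. *Col4a1*, *Col4a2* and *Col13a1* have their highest null library in heart, *Col5a3* has 1.28% and 1.49% in null heart against at least 4.68% in null hindbrain and carcass, and *Col12a1*, *Col1a2*, *Col8a1* and *Col25a1* have theirs in carcass.

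Carcass against hindbrain gave little. This comparison uses the same null hindbrain libraries as heart against hindbrain. *Col12a1* was the only collagen gene called, higher in carcass by 0.91 ± 0.17 (limma adjusted p = 0.0349), against 1.61% of all genes called higher. None was called lower, against 3.42%, and at an unadjusted p under 0.05 limma gave 8 higher and 2 lower. *Col12a1* had 4.02%, 2.30%, 4.27% and 3.78% in null hindbrain and 13.2% and 16.1% in null carcass, without overlap. It was 0.60 higher in heart against hindbrain. Leaving out any 1 of the 6 libraries took the call of *Col12a1* away, although its difference stayed between 0.83 and 0.99. By relative cover 10 collagen genes had both carcasses above all hindbrains, against 7.76% of all genes, and 9 had both below, against 17.2%. Of those 9, 5 were beaded filament genes.

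WT tissues, in which TDG is active, showed carcass against hindbrain as well. Of 31 collagen genes tested, 5 were higher in WT carcass by limma (*Col8a2*, *Col9a1*, *Col15a1*, *Col5a3* and *Col12a1*), against 14.2% of 6855 genes tested, and 0 were lower, also at an unadjusted p under 0.05, against 0.598%. *Col8a2* had 8.46% and 4.74% in the WT carcasses and was listed at 0 in all 4 WT hindbrains. *Col9a1* had 2.46% and 1.17%, *Col15a1* 1.12% and 1.96% and *Col5a3* 1.06% and 1.49%, again with 0 in all WT hindbrains. *Col12a1* had 0.903% and 0.985% in carcass and 0.246% in a single WT hindbrain. Without scaling to the library 21 of the 31 were higher in WT carcass, against 39.7% of all genes, and with peaks of at least 600 bp 10 of 24 were, against 26.1%. Without either WT carcass library no gene was called by limma, with 1 and 0 at an unadjusted p under 0.05, and 2 of the WT hindbrains covered less than 1 Mb of the genome.

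By group mean the highest cover in WT carcass after *Col8a2* was that of *Col25a1*, *Col23a1*, *Col6a6* and *Col24a1*. *Col25a1* had 4.89% and 4.63% in WT carcass, 0.641%, 0.974% and 0.190% in 3 WT hindbrains and 0% in the remaining one. *Col23a1* had 4.39% and 3.75%, *Col6a6* had 4.05% in both and *Col24a1* had 3.94% and 3.71%. The WT carcasses lay close to each other in all of these genes.

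Cover was higher without TDG at nearly all collagen genes, as it was at most genes. Percent cover, not scaled to the library, was higher in null than WT at 40 of 43 genes in hindbrain (limma, 74.5% of all 16728 genes tested), 39 in heart (76.4%) and 35 in carcass (63.3%). Among genes of similar length the shares were 87.7%, 89.6% and 78.7%. No collagen gene was lower in any of the 3 tissues, also at an unadjusted p under 0.05, against 0.0478%, 0.197% and 0.550% of all genes called lower. The hindbrain exceptions were *Col3a1*, *Col4a5* and *Col4a6*, and the heart exceptions *Col9a3*, *Col10a1*, *Col4a5* and *Col4a6*. In carcass the 8 exceptions included 4 beaded filament genes, of which *Col6a2* was the only one with a negative difference, -1.06 ± 0.73, from 0% in both null carcasses.

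The 4 null and 4 WT hindbrains did not overlap at 36 genes, against 46.4% of all 22367 genes and 10373 of the 14005 genes with peak bases in at least 2 of these libraries. Examples from carcass show the size of the difference. *Col24a1* went from 3.94% and 3.71% in WT carcass to 8.34% and 13.3% in null carcass, and *Col25a1* from 4.89% and 4.63% to 17.3% and 24.9%, while *Col2a1* went from 0% in both to 11.9% and 13.8%. Once cover was scaled to the library, 20 genes were called higher in null hindbrain, against 46.6% of all genes. In heart 14 were higher (39.6%) and 1 lower (1.12%), and in carcass 6 were higher (18.5%) and 1 lower (2.37%), shares at or below those of all genes for the higher calls.

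Start sites of collagen genes carried peaks in null libraries alone, and those of all genes carried few in WT tissues. In all 10 WT libraries no peak base lay within 1 kb of an annotated start of a collagen gene. The same regions of all protein-coding genes had 0.155% ± 0.148 (n = 4) in WT hindbrain and 0.123% ± 0.00602 (n = 2) in WT heart. They had 0.650% ± 0.0831 (n = 2) in WT carcass and 0.199% ± 0.226 (n = 2) in WT liver. The share of all genes without peak bases there in WT was not counted, so the absence is not read as particular to collagen genes. In null embryos these regions had 3.73% ± 1.74 (n = 4) in hindbrain, 9.18% ± 4.21 (n = 2) in heart and 13.7% ± 3.48 (n = 2) in carcass. All genes had 4.57% ± 0.683, 7.69% ± 4.33 and 7.04% ± 1.56 there. The start region was covered in both null carcasses for 9 collagen genes (17.3% of all genes), led by *Col6a3* with 86.1% of the region, *Col16a1* with 71.7%, *Col5a2* with 67.5% and *Col7a1* with 61.7%. Both null hearts covered 8 (15.8% of all genes), among them *Col7a1* with 65.8% and *Col11a2* with 59.1%. In all 4 null hindbrains the start region was covered for *Col6a3*, *Col6a6* and *Col16a1* (9.72% of all genes).

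Exons and introns of collagen genes had similar means in heart and carcass. Exons had 9.03% ± 4.65 and introns 8.90% ± 4.83 in null heart (n = 2), and 10.7% ± 2.23 and 10.7% ± 3.33 in null carcass (n = 2). All genes had 10.6% ± 4.85 in exons and 8.98% ± 4.44 in introns in heart, and 8.33% ± 1.74 and 8.71% ± 2.00 in carcass. In null hindbrain exons had 6.43% ± 1.21 and introns 4.80% ± 0.732 (n = 4), and all genes showed a like gap there, 5.60% ± 0.762 against 4.35% ± 0.578.

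Across the 43 genes, cover followed CpG density. Spearman's rho between CpGs per kb and mean percent cover was 0.65 in null hindbrain, 0.59 in heart and 0.45 in carcass, against 0.40, 0.43 and 0.33 over all 22367 genes. The points of each coefficient come from the same libraries and include overlapping windows, so they serve as a description. Collagen windows were slightly richer in GC than those of all genes (medians 47.4% and 45.1%) but held slightly fewer CpGs per kb (medians 11.4 and 12.2), and their start sites had a lower observed over expected CpG ratio (0.44 and 0.55). Over the joined length neighbours of the collagens the medians were 43.8% GC, 10.9 CpGs per kb and a ratio of 0.68. Against these genes collagen windows thus held more CpGs per kb.

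The genes that make collagen, from hydroxylation of its chains to secretion, trimming and cross-linking, were tallied from a list of 30, of which 29 were matched. In heart against hindbrain 4 were higher and 8 lower by limma, against 15.0% and 13.5% of all genes tested. In carcass against heart 2 were higher and 3 lower, against 7.33% and 14.4%, and in carcass against hindbrain 1 was higher and 1 lower, against 1.61% and 3.42%. *P4hb*, a subunit of the enzyme that hydroxylates collagen prolines, was covered to 13.2% and 8.69% in the null hearts and listed at 0 in all null hindbrains and carcasses. *Lepre1*, another prolyl hydroxylase, was 1.97 ± 0.44 higher in heart than hindbrain (limma adjusted p = 0.0197), with 27.1% and 19.4% in heart and 1.11% to 5.54% in hindbrain, and -2.22 ± 0.51 in carcass against heart. The lysyl oxidase gene *Lox*, which cross-links collagen, had 7.60% to 13.9% in null hindbrain, 13.3% in heart replicate 1 and 0% in heart replicate 2. It was lower in heart by -2.08 ± 0.63 (limma adjusted p = 0.0495), although in unscaled percent the groups overlap and only 1 heart lies below the hindbrains. The test used relative cover, and heart replicate 1 had 12.2% of all windows under peaks, against 3.54% to 4.78% in the null hindbrains.

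In carcass against heart *Loxl4*, another cross-linking oxidase, was 1.45 ± 0.37 higher. *Sparc*, a collagen-binding matrix protein, was 1.15 ± 0.19 higher in carcass than hindbrain (limma adjusted p = 0.0230), with 10.5% and 13.8% against 1.81% to 3.26%. *Loxl3* was the only one lower there, by -1.37 ± 0.20 (limma adjusted p = 0.0144). In WT carcass 5 of 18 tested were higher than in WT hindbrain, against 14.2% of all genes, led by the collagen chaperone *Serpinh1* with 6.09% and 9.13%, the lysyl hydroxylase *Plod3* with 5.16% in both and *Loxl1* with 3.27% and 3.64%, all 3 at 0 in the WT hindbrains. In null against WT 27 of the 29 were higher in hindbrain, 28 in heart and 26 in carcass, against 74.5%, 76.4% and 63.3% of all genes.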

How the data were processed

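5fC was mapped in 20 libraries of genomic DNA from 12 embryos. The formyl group was tagged with a cleavable biotin probe, captured on streptavidin and released, and per the study's methods and processing notes reads were trimmed with Trim Galore and aligned to NCBIM37 (mm9) with Bowtie2, both at default settings, converted with samtools, and peaks were called in SeqMonk with MACS, at a set p-value and fragment size, in each pull-down separately. The peak lists used here hold positions only, on a grid of 100 bp, with no height, score or read count. The paper states that raw reads are public too, and they were not used here. Peak calling on deeper or more enriched libraries yields more and wider peaks, so cover follows the library as well as the tissue.

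Overlapping peaks of a library were joined, and the percent of each gene window (body and 1 kb on either side) under peaks was computed. Tissues were compared with limma 3.58.1 in R 4.3.3 on log2(relative cover + 0.25), in 9 *Tdg* null or 10 WT libraries with group means and 1 shared spread. Genotypes were compared on log2(percent cover + 0.5), without scaling, in 19 libraries. Genes needed peak bases in at least 2 libraries of the fit, a call was an adjusted p under 0.05 (Benjamini-Hochberg over all genes tested), and differences are on these scales, which understate those of low genes. Genes named were up to 10 called per comparison of null tissues with the largest difference, the 3 of each class with the highest mean cover over the null groups, X-linked genes and, of the collagen-making genes, the 3 with the largest difference among those called; the rest are ranges, counts of 5 or fewer, or genes chosen after their values were seen. The members and lists were chosen with earlier results of these data known. One heart stretch that the rule for printed sequences would name is not reported here.

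The labels give litters, which pair null and WT embryos, and embryo names, which pair heart and carcass. Deviations from the group means correlated by -0.0624 to 0.0573 between libraries of a litter and by -0.0311 between heart and carcass of an embryo. Alternatives were other pseudocounts, scalings and filters, wider peaks, peak numbers, gene bodies alone, blocks for litter or embryo, a trend in the prior spread and leaving out each library.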

Additional observations from a re-analysis of the deposited data

Results flagged for a closer look

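In groups of 4 libraries, a library was marked as standing apart when its gap to the nearest other library, divided by the range of the group, passed Dixon's 95% critical value. Chance marks about 1 in 20 groups, and 48 groups were looked at, those with peaks in at least 3 libraries. Among null hindbrains *Col9a3* had a gap of 0.833 of the range, with 0% in replicate 2 and 1.89% to 2.27% in the others. *Col14a1* had a gap of 0.939, with 2.19% in replicate 2 and 3.63% to 3.72% in the others. *Col1a2* and *Col6a1* each had a gap of 1 because 3 libraries held the same percent, 3.36% and 3.10%, with *Col1a2* at 5.42% in replicate 4 and *Col6a1* at 7.23% in replicate 1. In WT hindbrain the cover of all collagen windows relative to all genes had a gap of 0.923, at 0.0863 in replicate 1, which had a peak in a single collagen gene, and at 0.947 to 1.02 in the others. Replicate 1 held 1564 peaks and replicate 4, at 0.947, held 1563.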

How the results depend on the processing

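Values below are numbers of collagen genes called unless another quantity is named. In null carcass against null hindbrain 1 gene became 2 with quantile normalization, without the filter and with peaks of at least 600 bp, 0 with peak numbers, and 0 to 1 with single libraries left out. In null heart against null hindbrain 14 became 8 without scaling, 6 with peak numbers and 6 to 18 with libraries left out, and *Col23a1*, lower in heart, turned to 0.11 higher without scaling. In null carcass against null heart 11 became 2 without scaling, 3 with peak numbers, 0 with the litter pair as a block and 2 to 15 with libraries left out. In WT carcass against WT hindbrain 5 became 21 without scaling, 3 with quantile normalization, 10 with peaks of at least 600 bp and 0 to 8 with libraries left out. Scaling to the library left 20, 15 and 7 in null against WT hindbrain, heart and carcass. The litter block changed no other number by over 1.5 times (39, 35 and 26), nor did a prior spread with a trend, an alternative chosen after seeing the data. Relative cover in WT carcass was 1.95 with peaks of at least 600 bp, 1.61 with peak numbers and 1.73 over gene bodies alone. Median length percentiles with GC content matched were 54.6, 36 and 54.8 in null hindbrain, heart and carcass. Matched on length alone, the median in heart was 53, and 48 with peak numbers and 44.5 to 50 with a library left out. Of the 10 genes named with the largest differences in heart against hindbrain, 83 of their values under other settings kept direction and call, 16 kept direction alone and 1 turned; in carcass against heart 82 kept both and 28 direction alone. With single libraries left out, 15 of their 60 values in heart against hindbrain and 20 of 40 in carcass against heart lost the call. Without WT carcass replicate 2, 1 collagen gene was lower in null than WT carcass. The cause was not tested in any of these.

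The heart and carcass groups had 2 libraries each, so 1 library decided many calls. Depth behind peaks is not known here, since raw reads were not used, and a gene listed at 0 is one without a called peak. Liver had 1 null library and was not compared. Tissue and set of embryos cannot be told apart for hindbrain, and windows of neighbouring type IV genes overlap.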
